A study of Mus musculus with 10 samples.

Results

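The genes described here are the solute carriers expressed in a mouse pancreatic ductal adenocarcinoma (PDAC) tumor cell. They were chosen by name and by level: every row of the RNA table whose name begins with SLC, a family number, A and a member number, and whose mean signal over the 10 libraries was at least 1, with 3 carriers left out by name. Of 351 matching rows, 348 were left, and 161 of these reached the minimum, out of 24812 rows with values and 11487 genes tested. The levels thus chose the members, so that being expressed is not a finding. The naming pattern does not take in carriers whose family number is followed by another letter, and 4 of the 161 (Slc9a3r1, Slc9a3r2, Slc4a1ap and Slc7a6os) are named after a carrier gene without being a carrier, which leaves 157 carriers. By substrate, 20 of the 161 were amino acid carriers, 24 metal carriers, 4 nucleoside or nucleobase carriers, 36 mitochondrial carriers of the SLC25 family and 73 carriers of other solutes.

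The study measured total RNA of these cells in bulk, in 3 groups of separate libraries, after 20 hours of stimulation. The PD-L1 high group (3 libraries) was exposed to recombinant mouse interferon gamma (IFNγ) and collected by flow cytometry for high surface PD-L1, the T cell checkpoint ligand. The treated all group (3 libraries) was exposed to IFNγ and not selected for PD-L1, so that it can contain PD-L1 high cells. The untreated all group (4 libraries) was neither exposed to IFNγ nor selected. There is no PD-L1 low group. The strain label reads C57BL/6 for the 7 libraries of the unselected groups, and C57BL/7, C57BL/8 and C57BL/9 for the 3 PD-L1 high libraries, a running number in the labels. No label says that the libraries of a group came from separate cultures, so the p-values reflect only how far these libraries spread, which may be technical.

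Solute carriers are membrane proteins that move amino acids, sugars, ions, metals, vitamins, lipids and nucleosides across the plasma membrane and the membranes of organelles. Amino acid exchangers of the SLC7 family work as pairs of a light chain and the shared heavy chain encoded by Slc3a2, zinc enters the cytosol through SLC39 proteins and leaves it through SLC30 proteins, and SLC25 proteins connect the mitochondrial matrix with the cytosol. In pancreatic cancer cells carriers of amino acids, lactate, nucleosides and zinc are studied as routes of nutrient and drug uptake, and IFNγ, acting through GAS elements of DNA, is known for altering uptake of amino acids and iron in several cell types.

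The summed signal of 7 epithelial markers was 4800 to 4870 in PD-L1 high and 5290 to 5320 in treated all libraries. In untreated all libraries it was 4300 to 4460. This sum was nearly all Krt8, Krt18 and Krt19. Epcam was at only 4.47 to 9.24 over all libraries. Krt7 was lowest and Sox9 highest in treated all libraries, so these markers did not move together. The sum of 5 acinar markers was 10.5 to 14.6 over all libraries, mostly Cela1. The summed signal of 7 leukocyte markers was 9.47 to 11.4, 10.6 to 11.1 and 5.6 to 6.42 in the same order of groups and was nearly all Cd68, with Cd3e and Adgre1 at 0 in all 10 libraries. That of 4 fibroblast markers was 13 to 14, 16.4 to 18.5 and 25.8 to 28.6, mostly Pdgfra. Col1a1 was at 2.83 to 7.07, Dcn at 0.216 or less and Lum at 0.04 or less over all libraries. The sum moved in the same direction as the falls of many carriers in IFNγ-treated cells. Its part in them was not tested. In bulk RNA, fewer cells of a type and less RNA per cell cannot be told apart. Untreated libraries 3 and 4 were aligned with libraries 1 and 2: for the 161 members, the absolute log2 difference between the means of the pair 3 and 4 and the pair 1 and 2 had a median of 0.00205, against 0.0590 and 0.0751 for the other ways of pairing the 4. Tests against the untreated group are therefore too liberal, and the counts over all members are also given without these libraries.

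Signal is the authors' normalized value per gene, and levels are compared between groups for each gene, not between genes. A gene was called changed at a Benjamini-Hochberg adjusted p under 0.05 in limma on log2(signal + 1), fitted over all 11487 genes, and a log2 fold change is given on that scale with its standard error. In treated all against untreated all cells, 40 of the 161 members rose, 24.8% against a background of 23.1% over all genes tested, and 53 fell, 32.9% against 38.8%. A change of at least 1.5-fold was found for 9 members that rose, 5.59% against 5.75% of all genes, and for 5 that fell, 3.11% against 6.7%. Slc2a6 and Slc41a2 among these 9 and Slc27a3 among these 5 had a mean under 1 in 1 or more groups and reached the minimum only through the groups where they were higher, as did Slc26a6 and Slc9a2. For these 5 members a difference between groups is tied to how members were chosen, so it is given as a description without a test, and their part in a count supports nothing. Without untreated libraries 3 and 4, 29 members rose (background 17.9%) and 42 fell (background 29.6%). With the libraries scaled by median ratios, 52 rose, 32.3% against 31.3%, and 44 fell, 27.3% against 29.5%. The split of the calls between the directions thus depends on the scaling. The shares of members called higher were close to those of all genes.

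In PD-L1 high against treated all cells, 18 members rose, 11.2% against 11.5% of all genes, and 24 fell, 14.9% against 14.1%. Of these, 2 in each direction changed by at least 1.5-fold, 1.24% of the members, against 0.914% of all genes higher and 1.11% lower. The 2 higher ones were Slc26a6 and Slc27a3, both with a mean under 1 in treated all, so that nothing is read from this count. Untreated libraries 3 and 4 enter this comparison only through the shared estimate of the spread. Without them 8 members rose, 4.97% against 7.69% of all genes, and 14 fell, 8.7% against 8.78%. With median-ratio scaling 26 rose, 16.1% against 13.4%, and 22 fell, 13.7% against 12.3%. In PD-L1 high against untreated all cells, 33 members rose, 20.5% against 19.1%, and 51 fell, 31.7% against 41.0%. Those with a change of at least 1.5-fold were 7 higher, 4.35% against 5.01%, and 4 lower, 2.48% against 4.77%, with Slc2a6 and Slc41a2 among the 7 and Slc27a3 among the 4. Without untreated libraries 3 and 4, 22 rose, 13.7% against 14.5%, and 30 fell, 18.6% against 29.6%. With median-ratio scaling 53 rose, 32.9% against 28.2%, and 31 fell, 19.3% against 27.1%. The median log2 fold change of the members was -0.04 in treated all against untreated all and -0.06 in PD-L1 high against untreated all cells, beside -0.07 and -0.10 for all genes.

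**Figure D1:**
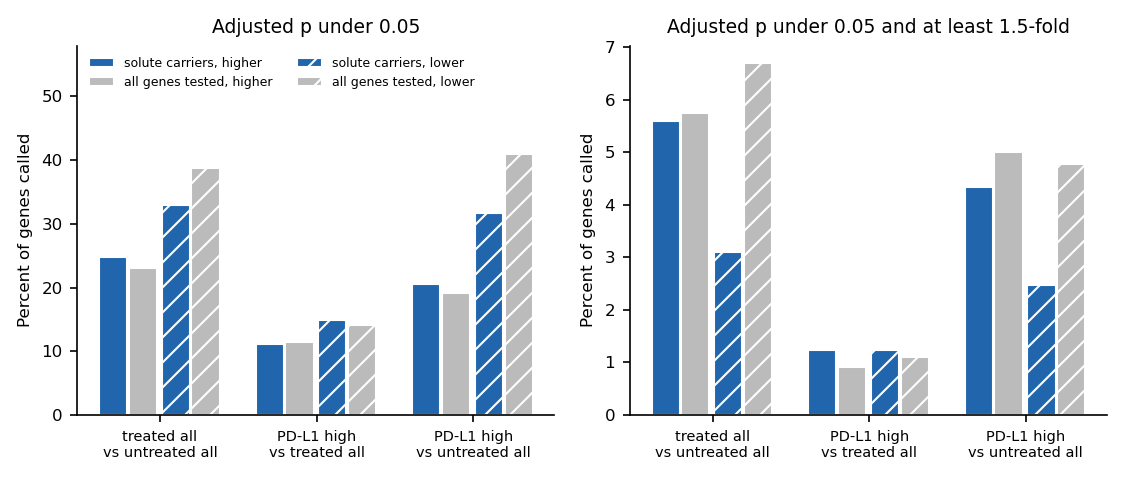
The bars give the percent of the 161 solute carriers (blue) and of all 11487 genes tested (grey) called higher (plain) or lower (hatched) in each comparison, on the left at an adjusted p under 0.05 and on the right with a change of at least 1.5-fold as well. The blue and grey bars for higher genes are close in every comparison, for example 24.8% and 23.1% in treated all against untreated all.

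The changes were small for most members and ran in both directions in nearly every class. In treated all against untreated all, 5 amino acid carriers rose and 10 of 20 fell (median log2 fold change -0.13), 5 of 24 metal carriers rose and 5 fell (median -0.03), 9 of 36 mitochondrial carriers rose and 12 fell (median -0.02), and 20 of the 73 carriers of other solutes rose and 22 fell (median -0.03). Of the 4 nucleoside carriers 3 fell (median -0.38). Of the members described without a test, Slc41a2 is among the 5 metal carriers that rose. Slc2a6, Slc26a6 and Slc27a3 are in the counts of other solutes. Over all genes 23.1% were called higher and 38.8% lower. The amino acid carriers that rose numbered 2 of 20 without untreated libraries 3 and 4, 10% against 17.9% of all genes, because Slc1a5, Slc36a4 and Slc7a15 lost the call. The widest spans were those of the other solutes, from -1.26 to 1.28, and of the amino acid carriers, from -0.48 to 1.38.

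**Figure D2:**
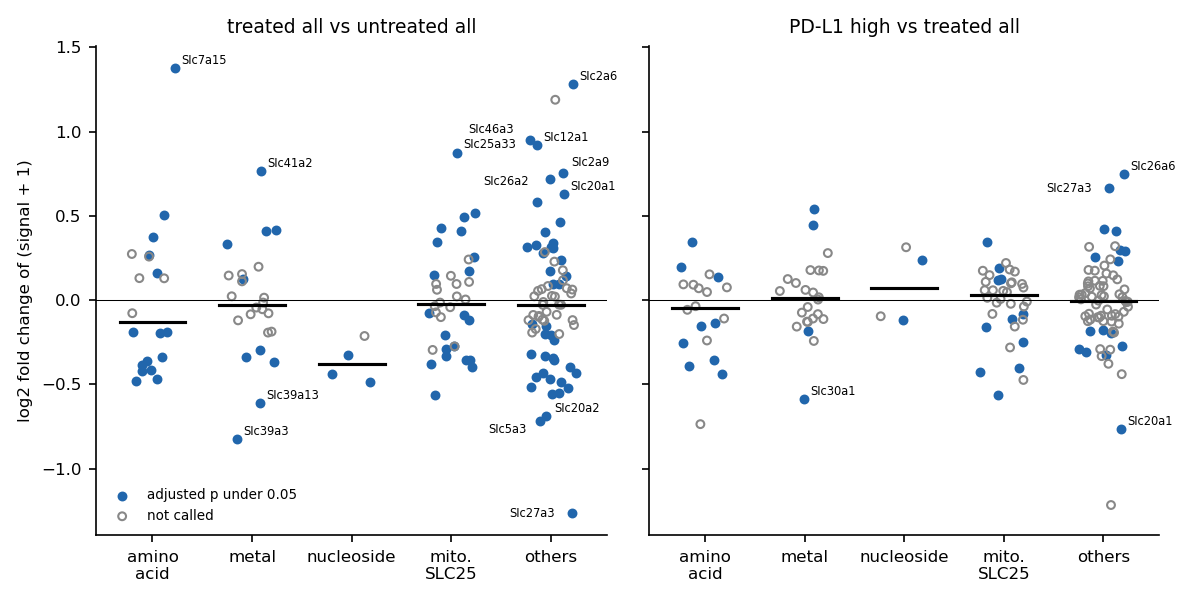
Each point is 1 carrier, with its log2 fold change of (signal + 1) on the y axis by substrate class, in treated all against untreated all (left) and PD-L1 high against treated all cells (right). Filled points were called at an adjusted p under 0.05, bars are class medians, named points changed by at least 1.5-fold without overlap between groups, and the 4 genes that are not carriers are left out.

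Among the amino acid carriers, Slc3a2 (chr19:8706882-8723369, minus strand, GRCm38 as for all coordinates here) rose in IFNγ-treated cells and its partner Slc7a5 fell. Slc3a2, the heavy chain of the SLC7 exchangers, had 222, 215 and 234 signal in PD-L1 high, 246.9, 249.6 and 249.4 in treated all, and 194, 190, 191 and 193 in untreated all libraries. The 3 groups did not overlap, with treated all highest. Its log2 fold change was 0.37 ± 0.03 in treated all against untreated all (limma adjusted p = 3.7e-07) and -0.15 ± 0.03 for PD-L1 high against treated all (limma adjusted p = 0.0025). Slc7a5 (chr8:121881150-121907694), the light chain of the large neutral amino acid exchanger LAT1, had 29.1, 27.4 and 28.2 signal in PD-L1 high, 31, 30.7 and 31.9 in treated all and 36.5, 35.3, 35.2 and 36.4 in untreated all libraries. Its groups were ordered the other way from Slc3a2 on IFNγ exposure, with untreated all highest. The log2 fold change was -0.19 ± 0.03 in treated all against untreated all (limma adjusted p = 0.00051) and -0.33 ± 0.03 in PD-L1 high against untreated all (1.1e-05). The fall in PD-L1 high against treated all, -0.14 ± 0.04, was lost without untreated libraries 3 and 4 (limma adjusted p = 0.070), and also without treated library 3 or PD-L1 high library 2 (-0.12 and limma adjusted p = 0.061 for either).

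Slc7a1 (chr5:148327410-148399904), the cationic amino acid transporter CAT1 that imports arginine and lysine, had 15.2, 15 and 15.6 signal in PD-L1 high, 19.8, 18.9 and 20.6 in treated all and 14.3, 13, 13.5 and 13.7 in untreated all libraries. The treated all libraries were above all others. Slc7a1 rose by 0.51 ± 0.05 in treated all against untreated all (limma adjusted p = 3.2e-06) and fell by 0.35 ± 0.05 in PD-L1 high relative to treated all cells (limma adjusted p = 0.00045). Its small rise in PD-L1 high against untreated all, 0.15 ± 0.05, was lost without untreated libraries 3 and 4 (limma adjusted p = 0.092). Slc1a5, the glutamine carrier ASCT2, had 23.1 ± 0.19 signal in PD-L1 high, 27.8 ± 2.0 in treated all and 24.6 ± 0.15 in untreated all libraries (SD, n = 3, 3 and 4). It fell by 0.25 ± 0.05 in PD-L1 high against treated all, while its rise of 0.16 ± 0.05 in treated all against untreated all was lost without untreated libraries 3 and 4 (limma adjusted p = 0.067).

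Slc38a2 (chr15:96687392-96699730), the sodium-coupled neutral amino acid transporter SNAT2, had 76.7, 75.8 and 75.5 signal in PD-L1 high, 72.3, 70.0 and 73.8 in treated all and 106, 96.3, 99.3 and 102 in untreated all libraries. Both IFNγ-treated groups were below all untreated libraries. The fall was -0.48 ± 0.03 in treated all against untreated all (limma adjusted p = 3.6e-07) and -0.40 ± 0.03 in PD-L1 high against untreated all (1.9e-06). Among carriers named after their values were seen, Slc38a10, Slc6a9, Slc7a6, Slc7a7, Slc1a4 and Slc38a7 also fell in treated all against untreated all, by 0.19 to 0.46, Slc1a4 not with median-ratio scaling (-0.10, limma adjusted p = 0.075). Slc7a4 and Slc38a9 were called lower at -0.42 and -0.36 but lost the call without untreated libraries 3 and 4 (limma adjusted p = 0.085 and 0.066), and Slc7a4 also with median-ratio scaling (-0.35, limma adjusted p = 0.058), with the replicate block (-0.37, limma adjusted p = 0.056), and without untreated library 2 or 4 or treated library 1 or 3 (-0.42 to -0.33). Slc6a9, the glycine transporter GLYT1, averaged 5.31 ± 0.72 signal in PD-L1 high, 3.96 ± 0.35 in treated all and 5.84 ± 0.29 in untreated all libraries. The largest fitted change in the class was that of Slc7a15 (chr12:8528483-8599066), a light chain of the same family, with 2.73, 3.68 and 4.78 signal in PD-L1 high, 9.57, 11 and 2.67 in treated all and 2.42, 1.47, 1.99 and 2.11 in untreated all libraries. It was called higher in treated all (log2 fold change 1.38 ± 0.37, limma adjusted p = 0.010), with treated library 3 near the untreated level. The call was lost without untreated libraries 3 and 4 (1.41, limma adjusted p = 0.063).

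**Figure D3:**
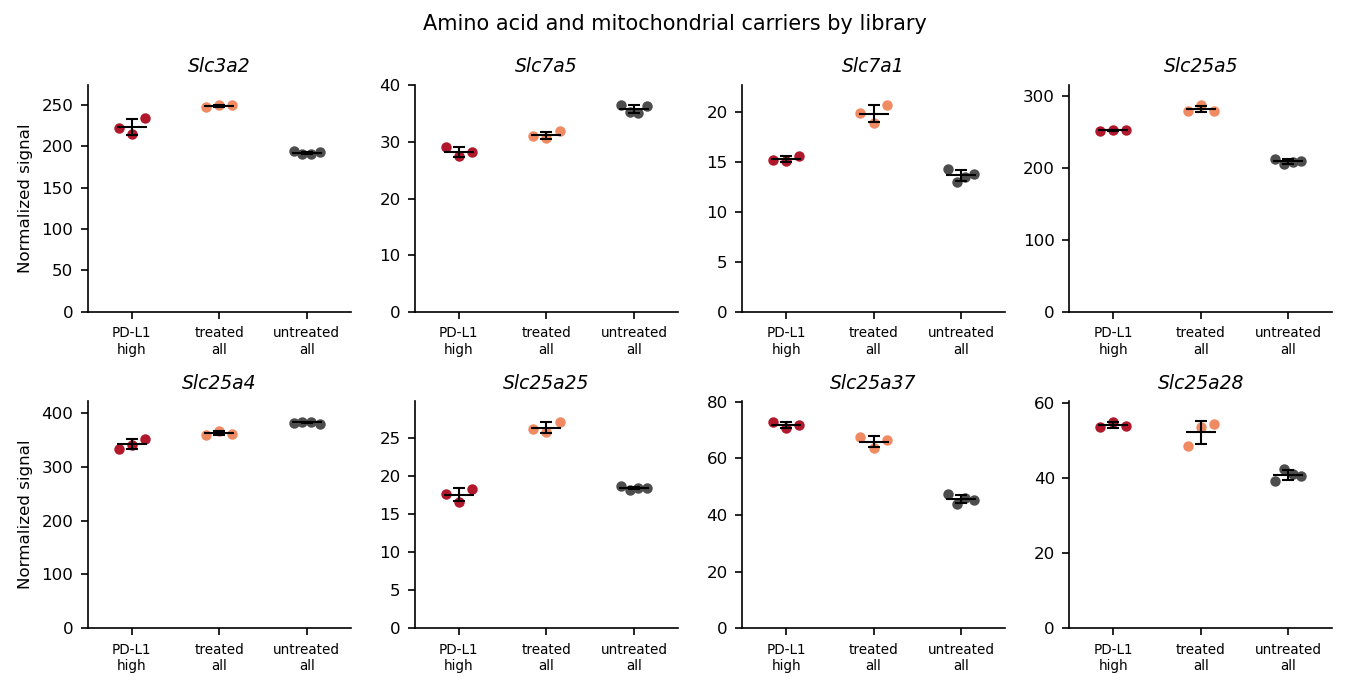
Normalized signal of 8 amino acid and mitochondrial carriers, with 1 point per library, horizontal bars for group means and whiskers for the SD (n = 3, 3 and 4), and the y axis starting at 0. Slc3a2, Slc7a1, Slc25a5 and Slc25a25 are highest in treated all cells, whereas Slc7a5 and Slc25a4 are highest in untreated all cells.

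Of the mitochondrial adenine nucleotide translocases, Slc25a5 rose in both IFNγ-treated groups, while the small fall of Slc25a4 in treated all cells depended on the scaling. Slc25a5 (chrX:36795651-36798807), which encodes translocase ANT2 and exchanges ADP for ATP across the inner membrane, had 251, 253 and 252 signal in PD-L1 high, 279, 287 and 279 in treated all and 213, 206, 208 and 209 in untreated all libraries. The 3 groups did not overlap. It rose by 0.43 ± 0.02 in treated all against untreated all (limma adjusted p = 7.6e-09), and was 0.27 ± 0.02 higher in PD-L1 high than in untreated all cells and -0.16 ± 0.02 lower than in treated all cells. Slc25a4 (chr8:46206797-46211284), which encodes ANT1, had 332, 341 and 352 signal in PD-L1 high, 359, 367 and 361 in treated all and 382, 384, 383 and 380 in untreated all libraries. Its fall in treated all against untreated all, -0.08 ± 0.02, turned to 0.01 with median-ratio scaling and was lost without untreated libraries 3 and 4 (limma adjusted p = 0.053). Its fall in PD-L1 high against untreated all was -0.16 ± 0.02 (limma adjusted p = 5.1e-05), and -0.06 with no call under median-ratio scaling (limma adjusted p = 0.10). Slc25a3, the mitochondrial phosphate carrier, averaged 291 ± 4.8 signal in PD-L1 high, 314 ± 6.3 in treated all and 342 ± 5.4 in untreated all libraries. Its fall in treated all against untreated all was -0.12 ± 0.02 and was lost with median-ratio scaling (-0.03, limma adjusted p = 0.30).

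Both mitoferrins, which bring iron into the mitochondrial matrix, rose. Slc25a37 (chr14:69241848-69285112), mitoferrin 1, had 72.9, 70.8 and 71.7 signal in PD-L1 high, 67.4, 63.7 and 66.5 in treated all and 47.5, 44, 46 and 45.4 in untreated all libraries. The groups were in that order without overlap, and Slc25a37 was called higher in both treated all against untreated all (0.52 ± 0.03, limma adjusted p = 1.5e-07) and PD-L1 high against treated all. The second of these, 0.12 ± 0.03, was lost without untreated libraries 3 and 4 (limma adjusted p = 0.074), and without treated library 2 or PD-L1 high library 1 or 3 (0.10 to 0.12). Slc25a28 (chr19:43663801-43674881), mitoferrin 2, had 53.7, 55.1 and 53.9 signal in PD-L1 high, 48.6, 53.7 and 54.4 in treated all and 39.3, 42.4, 41.1 and 40.6 in untreated all libraries. Both treated groups were above all untreated libraries and overlapped each other. The log2 fold change was 0.34 ± 0.04 in treated all and 0.40 ± 0.04 in PD-L1 high against untreated all (limma adjusted p = 3.4e-05 and 1.2e-05).

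Slc25a33 (chr4:149744036-149774277), a carrier of pyrimidine nucleotides, had 4.32, 4.48 and 4.31 signal in PD-L1 high, 5.89, 6.95 and 5.52 in treated all and 2.69, 3.04, 2.98 and 2.77 in untreated all libraries. The groups did not overlap and PD-L1 high cells lay between the others. It rose by 0.88 ± 0.08 in treated all against untreated all (limma adjusted p = 2.1e-06) and fell by 0.40 ± 0.08 in PD-L1 high relative to treated all cells (limma adjusted p = 0.0044). Slc25a25, an ATP-Mg and phosphate carrier, had 17.7, 16.7 and 18.3 signal in PD-L1 high, 26.2, 25.8 and 27.2 in treated all and 18.7, 18.3, 18.5 and 18.4 in untreated all libraries. It rose by 0.49 ± 0.04 in treated all against untreated all and fell by 0.56 ± 0.04 in PD-L1 high relative to treated all cells (limma adjusted p = 1.7e-06 and 7.3e-06), and PD-L1 high and untreated all cells overlapped. Slc25a23, another carrier of that kind, averaged 17.1 ± 1.1, 14.8 ± 0.35 and 22.4 ± 0.88 signal in PD-L1 high, treated all and untreated all libraries, and fell by 0.56 ± 0.05 in treated all against untreated all. Of carriers of the malate-aspartate and citrate shuttles, Slc25a13, Slc25a12 and Slc25a1 rose by 0.41, 0.15 and 0.17 in treated all against untreated all, and Slc25a39, needed for mitochondrial glutathione uptake, fell by 0.36. Slc25a10, Slc25a15, Slc25a17, Slc25a27 and Slc25a40 fell there by 0.21 to 0.40. These carriers and Slc25a3, Slc25a4, Slc25a5, Slc25a23 and Slc25a25 were chosen after their values were seen.

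Among the metal carriers, 4 of the 12 members of the SLC39 family of zinc importers fell in treated all against untreated all, and the other 8 were not called. The 4 are 33.3% of the family, against 38.8% of all genes called lower. Slc39a3 (chr10:81028538-81037426), the zinc importer ZIP3, had 7.49, 7.57 and 7.00 signal in PD-L1 high, 4.49, 5.59 and 5.40 in treated all and 10.6, 9.21, 9.32 and 10.5 in untreated all libraries. The groups did not overlap and PD-L1 high cells lay in the middle. The log2 fold change was -0.82 ± 0.08 in treated all against untreated all (limma adjusted p = 4.0e-06) and 0.44 ± 0.08 for PD-L1 high against treated all (0.0028). Slc39a13 (chr2:91061791-91070417), which encodes ZIP13, a zinc carrier of the secretory pathway, had 18.6, 21.5 and 17.5 signal in PD-L1 high, 13.2, 13.2 and 12.2 in treated all and 19.4, 21.0, 20.5 and 19.8 in untreated all libraries. Only the treated all libraries stood apart from the rest. It fell by 0.61 ± 0.06 in treated all against untreated all and was 0.54 ± 0.07 higher in PD-L1 high than in treated all cells (limma adjusted p = 1.1e-05 and 0.00026). An exon of Slc39a13 overlaps the proteasome gene Psmc3 on the opposite strand, and since the strand of the counting is not given, reads of the overlap cannot be assigned.

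Slc39a14, a carrier of zinc, iron and manganese, had 15.1, 13.3 and 15 signal in PD-L1 high, 15, 14.1 and 15.6 in treated all and 20.0, 19.1, 19.6 and 19.4 in untreated all libraries. It fell by 0.37 ± 0.05 and 0.41 ± 0.05 in treated all and PD-L1 high against untreated all (limma adjusted p = 0.00013 and 7.1e-05). Slc39a10, a zinc importer named after its values were seen, fell by 0.34 ± 0.06 and 0.50 ± 0.06 in the same comparisons. Slc11a2, the divalent metal transporter DMT1, had 21.4, 19.7 and 20.9 signal in PD-L1 high, 21.2, 21.1 and 23.5 in treated all and 15.3, 19.2, 16.4 and 18.1 in untreated all libraries. It rose by 0.33 ± 0.07 in treated all against untreated all (limma adjusted p = 0.0020), and its call in PD-L1 high against untreated all, 0.25 ± 0.07, was lost without untreated libraries 3 and 4 (limma adjusted p = 0.052). Slc31a1, the copper importer CTR1, also named after its values were seen, averaged 14 ± 0.36, 16 ± 0.64 and 11.8 ± 0.49 signal in PD-L1 high, treated all and untreated all libraries and rose by 0.41 ± 0.05 in treated all against untreated all.

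Slc41a2 (chr10:83230848-83337882), a magnesium carrier, had 2.27, 2.08 and 1.89 signal in PD-L1 high, 1.49, 1.77 and 1.90 in treated all and 0.498, 0.698, 0.675 and 0.535 in untreated all libraries. Both treated groups were above all untreated libraries. The log2 difference was 0.76 ± 0.09 and 0.94 ± 0.09 in treated all and PD-L1 high against untreated all, as a description, since its untreated mean was under 1. Its relative Slc41a1, named after its values were seen, had 10.5 ± 0.068, 10.2 ± 0.45 and 12.7 ± 0.22 signal in PD-L1 high, treated all and untreated all libraries and fell by 0.29 ± 0.04 in treated all against untreated all.

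Slc30a1 (chr1:191906767-191913247), the plasma membrane exporter of zinc, had 1.26, 1.29 and 1.15 signal in PD-L1 high, 2.61, 2.06 and 2.41 in treated all and 1.7, 1.33, 1.55 and 1.48 in untreated all libraries. The treated all libraries were above and the PD-L1 high libraries below the untreated ones, without overlap. It rose by 0.41 ± 0.08 in treated all against untreated all (limma adjusted p = 0.0014) and fell by 0.58 ± 0.09 in PD-L1 high relative to treated all cells (limma adjusted p = 0.00093). At -0.17 ± 0.08 it was not called in PD-L1 high against untreated all. Slc30a1 is a known target of the zinc-sensing factor MTF1, which binds metal response elements (MRE), and its promoter is shown for this reason. The 300 bases on the plus strand, chr1:191906531-191906830, run from 250 bases before the RefSeq start to 50 after it, and capitals mark the matches to TGCACNC or TGCGCNC, both on the other strand.
Slc30a1: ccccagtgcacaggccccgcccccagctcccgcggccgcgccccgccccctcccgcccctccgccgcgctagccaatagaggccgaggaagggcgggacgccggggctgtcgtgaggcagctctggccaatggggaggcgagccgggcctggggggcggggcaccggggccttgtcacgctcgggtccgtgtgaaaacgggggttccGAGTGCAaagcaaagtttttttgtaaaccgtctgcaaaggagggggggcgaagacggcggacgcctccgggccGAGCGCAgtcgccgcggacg
The matches begin at positions -43 and 31 counted from the start. This motif was found on either strand in a promoter of 49 of the 123 members with an entry in the RefSeq promoter table for GRCm38.p6, 39.8%, against 28.2% of 27025 genes. Of members that rose in treated all against untreated all, 38.7% held it, and of those that fell 36.6%.

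Of the 4 nucleoside carriers, 3 fell in treated all (background 38.8%) and 3 in PD-L1 high (background 41.0%) against untreated all, and Slc29a1 and Slc43a3 were among the 3 each time. In PD-L1 high against untreated all, the calls of Slc43a3 (-0.20 ± 0.07) and Slc29a2 (-0.31 ± 0.11) were lost without untreated libraries 3 and 4 (limma adjusted p = 0.11 and 0.12) and with either other scaling. Slc29a1 (chr17:45585200-45599606), the equilibrative nucleoside transporter ENT1 that also carries the drug gemcitabine, had 103, 100.4 and 105 signal in PD-L1 high, 110.4, 108 and 116 in treated all and 142, 139, 137 and 142 in untreated all libraries. The groups did not overlap, and PD-L1 high was lowest. It fell by 0.32 ± 0.03 and 0.44 ± 0.03 in treated all and PD-L1 high against untreated all (limma adjusted p = 2.9e-06 and 2.9e-07), and its fall in PD-L1 high against treated all, -0.12 ± 0.03, was lost without untreated libraries 3 and 4 (limma adjusted p = 0.053), treated library 3 (-0.09) or PD-L1 high library 2 (-0.10). Slc43a3, a carrier of purine nucleobases, had 8.99, 8.25 and 9.99 signal in PD-L1 high, 8.10, 7.17 and 7.28 in treated all and 10.7, 10.3, 10.8 and 10.2 in untreated all libraries. It fell by 0.44 ± 0.07 in treated all against untreated all (limma adjusted p = 0.00017), and its call in PD-L1 high against treated all, 0.24 ± 0.07, was lost without untreated libraries 3 and 4 (limma adjusted p = 0.079), and without treated library 2 or 3 or PD-L1 high library 1 or 3 (0.18 to 0.24). Slc29a3, the lysosomal carrier ENT3, fell by 0.48 ± 0.13 in treated all against untreated all (limma adjusted p = 0.0062), and Slc29a2, the transporter ENT2, was not called there at -0.21 ± 0.11 (limma adjusted p = 0.12). These 2 were chosen after their values were seen.

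Among carriers of sugars and polyols, 2 of 11 (Slc2a6 and Slc2a9) were called higher, 18.2% against 23.1% of all genes, and 3 fell, 27.3% against 38.8%, in treated all against untreated all. Slc2a6 (chr2:27021363-27027998), a hexose carrier of the GLUT family found in lysosomes, had 2.40, 2.59 and 2.14 signal in PD-L1 high, 2.49, 1.98 and 2.09 in treated all and 0.329, 0.275, 0.317 and 0.302 in untreated all libraries. All treated libraries were far above all untreated ones, and the treated groups overlapped. The log2 fold change was 1.28 ± 0.08 in treated all and 1.37 ± 0.08 in PD-L1 high against untreated all, as a description, since its untreated mean was under 1. Slc2a9 (chr5:38349273-38503143), a urate carrier of the same family, had 2.13, 2.25 and 2.52 signal in PD-L1 high, 2.32, 2.20 and 2.89 in treated all and 1.11, 0.968, 0.945 and 1.15 in untreated all libraries, and rose by 0.76 ± 0.09 and 0.69 ± 0.09 in the same comparisons. Slc5a3 (chr16:92058322-92087473), the sodium-coupled inositol carrier SMIT1, had 7.60, 7.49 and 7.94 signal in PD-L1 high, 8.14, 7.02 and 7.60 in treated all and 14, 12.2, 12.9 and 13.3 in untreated all libraries. It fell by 0.72 ± 0.06 and 0.70 ± 0.06 in treated all and PD-L1 high against untreated all (limma adjusted p = 1.8e-06 and 2.8e-06). Slc5a3 shares exon sequence with Mrps6 on the same strand, so that reads of the shared exon may be counted for either gene.

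The promoters of Slc2a6, Slc46a3 and Slc7a1 are shown because the level of these members was higher in treated all than in untreated all and because 2 of the 3 hold the GAS motif TTCNNNGAA, marked in capitals, a DNA element through which IFNγ is known to act. All lie on the minus strand, at chr2:27027949-27028248 for Slc2a6, chr5:147894766-147895065 for Slc46a3 and chr5:148392766-148393065 for 1 of the annotated starts of Slc7a1, and are given from RefSeq (GRCm38.p6).
Slc2a6: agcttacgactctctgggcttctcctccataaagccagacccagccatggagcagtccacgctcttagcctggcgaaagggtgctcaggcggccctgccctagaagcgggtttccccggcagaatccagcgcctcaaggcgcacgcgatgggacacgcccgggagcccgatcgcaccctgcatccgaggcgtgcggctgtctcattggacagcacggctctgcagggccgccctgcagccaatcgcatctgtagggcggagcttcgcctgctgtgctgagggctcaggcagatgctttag
Slc46a3: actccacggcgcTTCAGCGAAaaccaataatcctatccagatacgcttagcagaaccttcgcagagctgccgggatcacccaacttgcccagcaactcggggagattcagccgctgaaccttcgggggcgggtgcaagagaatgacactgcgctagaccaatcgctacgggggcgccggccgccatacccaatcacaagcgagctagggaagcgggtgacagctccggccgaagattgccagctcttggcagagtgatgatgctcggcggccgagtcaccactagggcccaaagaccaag
Slc7a1: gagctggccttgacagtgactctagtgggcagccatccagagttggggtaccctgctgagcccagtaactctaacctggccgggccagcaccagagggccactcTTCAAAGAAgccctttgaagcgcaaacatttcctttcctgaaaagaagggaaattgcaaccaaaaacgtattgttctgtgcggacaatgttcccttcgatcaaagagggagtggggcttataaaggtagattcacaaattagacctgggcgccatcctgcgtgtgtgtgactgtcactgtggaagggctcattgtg
The match begins at position -238 from the start in Slc46a3 and at -146 in Slc7a1, and these letters are not in the window of Slc2a6. The Slc7a1 window was taken because it holds a match, and the window of its other annotated start, chr5:148399855-148400154, holds none. GAS, read on both strands, was found for 7 of the 123 members, 5.69%, against 9.55% of all genes, namely Slc1a3, Slc22a15, Slc25a36, Slc38a9, Slc39a10, Slc46a3 and Slc7a1. It was held by 3 of 31 members that rose in treated all against untreated all and 2 of 41 that fell. The amino acid response element TGATGNAAT was found for 0 members, against 1.08% of all genes, and the lysosomal gene motif TCACGTGA for 4, 3.25% against 1.12%. A match is not a measured site, and a missing one says only that these letters are not in the window.

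Both phosphate carriers were changed, in opposite directions in treated all against untreated all. Slc20a1 (chr2:129198764-129211616), the sodium-coupled phosphate importer PiT-1, had 59.4, 55.9 and 56.7 signal in PD-L1 high, 97.3, 92.1 and 106 in treated all and 64.1, 62.3, 62 and 64.3 in untreated all libraries. The treated all libraries were above all others and PD-L1 high was lowest. It rose by 0.63 ± 0.04 in treated all against untreated all and fell by 0.77 ± 0.05 in PD-L1 high relative to treated all cells (limma adjusted p = 3.5e-07 and 1.0e-06), the largest called fall among the members in that comparison. Its fall in PD-L1 high against untreated all, -0.14 ± 0.04, was lost without untreated libraries 3 and 4 (limma adjusted p = 0.084), without PD-L1 high library 2 or 3 (-0.12 and -0.13), and with median-ratio or upper-quartile scaling (-0.03 and -0.07). Slc20a2 (chr8:22476788-22569612), PiT-2, had 72, 73.6 and 74.8 signal in PD-L1 high, 75.6, 72.4 and 73.7 in treated all and 121, 119, 119 and 121 in untreated all libraries. It fell by 0.69 ± 0.02 in treated all and 0.70 ± 0.02 in PD-L1 high against untreated all (limma adjusted p = 1.3e-09 each). Exons of Slc20a1 and Slc20a2 overlap genes on the opposite strand, Smim19 in the case of Slc20a2, which leaves their counting uncertain. Among other named members, such overlaps also exist for Slc6a9, Slc7a7, Slc11a2, Slc15a4, Slc25a10, Slc25a23, Slc25a25, Slc25a33, Slc25a37, Slc29a1, Slc30a1, Slc38a10 and Slc44a3.

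**Figure D4:**
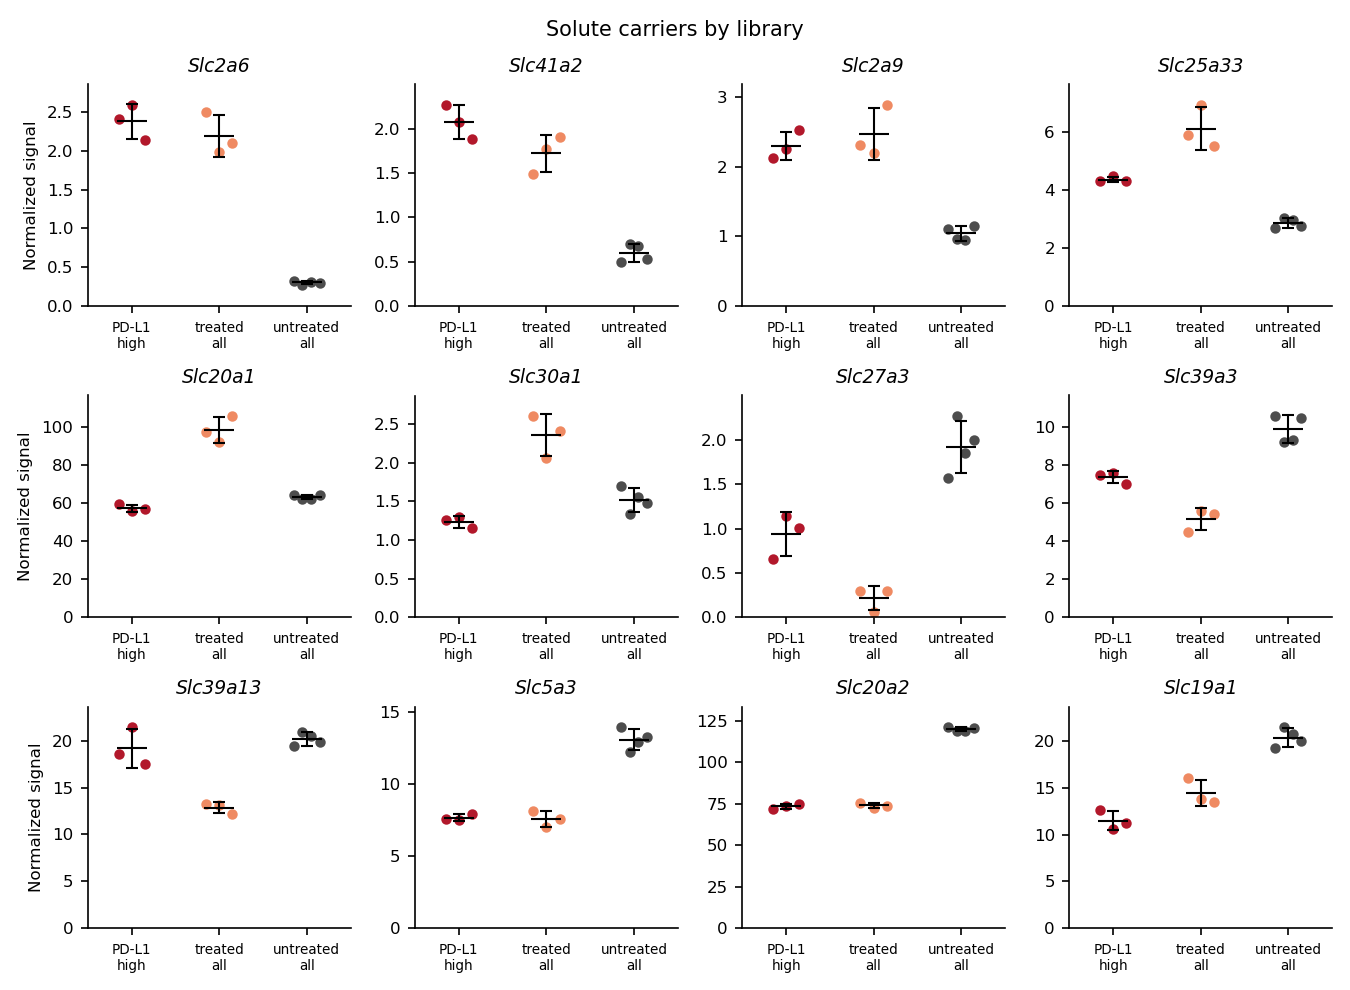
Normalized signal of 12 carriers, with 1 point per library, horizontal bars for group means and whiskers for the SD (n = 3, 3 and 4), and the y axis starting at 0. Slc2a6, Slc41a2 and Slc2a9 are higher and Slc5a3, Slc20a2 and Slc19a1 lower in both IFNγ-treated groups than in untreated all cells, whereas Slc20a1 and Slc30a1 stand highest and Slc27a3, Slc39a3 and Slc39a13 lowest in treated all cells.

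Among 20 carriers of bicarbonate, protons, chloride and sulfate, 4 rose, 20.0% against 23.1% of all genes, and 7 fell, 35% against 38.8%, in treated all against untreated all. Slc26a6, described below without a test, was among the 7. The count that fell was 3 without untreated libraries 3 and 4, 15% against 29.6%. Slc12a1 (chr2:125152505-125230002), the sodium, potassium and chloride cotransporter known from the kidney, had 2.23, 2.04 and 2.70 signal in PD-L1 high, 2.97, 2.52 and 2.89 in treated all and 0.589, 1.45, 1.18 and 0.882 in untreated all libraries. It rose by 0.92 ± 0.14 and 0.73 ± 0.14 in treated all and PD-L1 high against untreated all (limma adjusted p = 0.00016 and 0.00093). Its relatives Slc12a7, a potassium and chloride cotransporter, and Slc12a2, the widely expressed sodium, potassium and chloride cotransporter, changed by 0.47 ± 0.04 and -0.34 ± 0.06 in treated all against untreated all. Slc26a2, a sulfate carrier, had 36, 35.3 and 36.2 signal in PD-L1 high, 39.4, 36.3 and 39.6 in treated all and 25.3, 20.6, 22.6 and 23.3 in untreated all libraries, and rose by 0.72 ± 0.06 and 0.62 ± 0.06 in treated all and PD-L1 high against untreated all (limma adjusted p = 1.5e-06 and 5.9e-06). Slc26a6 (chr9:108853283-108913049), an anion exchanger, had 1.79, 0.857 and 2.10 signal in PD-L1 high, 0.503, 0.621 and 0.394 in treated all and 1.25, 1.04, 1.18 and 1.14 in untreated all libraries. As a description, since its treated all mean was under 1, the log2 difference was 0.75 ± 0.16 for PD-L1 high against treated all, with a wide spread among the PD-L1 high libraries, and -0.52 ± 0.15 for treated all against untreated all. The sodium and proton exchanger Slc9a5 fell by 0.55 ± 0.07 in treated all against untreated all, and Slc9a5, Slc12a2 and Slc12a7 were chosen after their values were seen.

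Of 6 carriers of fatty acids and choline, 3 were called lower (background 38.8%) and 1 rose (background 23.1%) in treated all against untreated all, and 3 were called higher in PD-L1 high than in treated all cells (background 11.5%), with Slc27a3 among the 3 each time. Slc27a3 (chr3:90385239-90389938), of the fatty acid transport and acyl-CoA synthetase family, had 0.657, 1.14 and 1.01 signal in PD-L1 high, 0.291, 0.0646 and 0.300 in treated all and 1.57, 2.27, 1.85 and 2 in untreated all libraries. The groups did not overlap. The log2 difference was -1.26 ± 0.12 in treated all against untreated all and 0.66 ± 0.13 for PD-L1 high against treated all, as a description, at levels close to the minimum. Slc44a2, a choline carrier, averaged 53.5 ± 0.36, 43.5 ± 2.8 and 54.5 ± 1.3 signal in PD-L1 high, treated all and untreated all libraries, with changes of -0.32 ± 0.04 in treated all against untreated all and 0.30 ± 0.04 for PD-L1 high against treated all (limma adjusted p = 4.9e-05 and 0.00071). Slc44a3 averaged 21.1 ± 3.2, 15.5 ± 0.22 and 14.6 ± 0.78 signal in the same order of groups and rose by 0.41 ± 0.09 in PD-L1 high against treated all (limma adjusted p = 0.0058).

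Of 5 monocarboxylate carriers, Slc16a3, the lactate exporter MCT4, averaged 80.8 ± 6.2 signal in PD-L1 high, 67.3 ± 0.62 in treated all and 79.4 ± 3.5 in untreated all libraries. It fell by 0.23 ± 0.05 in treated all against untreated all and was 0.26 ± 0.05 higher in PD-L1 high than in treated all cells (limma adjusted p = 0.0016 and 0.0048). Slc16a1, the lactate carrier MCT1, averaged 116 ± 2.6, 121 ± 3.3 and 113 ± 3.7 signal in PD-L1 high, treated all and untreated all libraries, and its call of 0.09 ± 0.03 in treated all against untreated all was lost without untreated libraries 3 and 4 (limma adjusted p = 0.11), and without untreated library 2 or 3 or treated library 1 or 3 (0.07 to 0.09). Slc16a1, Slc16a3, Slc44a2 and Slc44a3 were chosen after their values were seen.

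Among carriers of vitamins, organic ions and cofactors, 7 of 18 rose, 38.9% against 23.1% of all genes, and 5 fell, 27.8% against 38.8%, in treated all against untreated all, and 5 were lower in PD-L1 high than in treated all cells, 27.8% against 14.1%. This last count was 2 without untreated libraries 3 and 4, 11.1% against 8.78%. Slc19a1 (chr10:77032241-77061002), the reduced folate carrier, had 12.7, 10.6 and 11.2 signal in PD-L1 high, 16.1, 13.8 and 13.5 in treated all and 19.2, 21.5, 20.7 and 20.0 in untreated all libraries. The groups were in that order without overlap. It fell by 0.47 ± 0.07 and 0.77 ± 0.07 in treated all and PD-L1 high against untreated all (limma adjusted p = 2.0e-04 and 5.1e-06), the second being the largest called fall among the members in that comparison. In PD-L1 high against treated all its fall was 0.31 ± 0.08 (limma adjusted p = 0.015), and it was lost without treated library 1 (-0.23, limma adjusted p = 0.051) or PD-L1 high library 2 (-0.26, limma adjusted p = 0.055). The proton-coupled folate carrier Slc46a1 fell by 0.49 ± 0.12 in treated all against untreated all (limma adjusted p = 0.0053), and the thiamine carrier Slc19a2 rose by 0.34 ± 0.07 (limma adjusted p = 0.0019); both were chosen after their values were seen. Slc46a3 (chr5:147878437-147894815), a lysosomal relative of the folate carrier, had 2.63, 1.31 and 1.91 signal in PD-L1 high, 3.77, 2.16 and 3.05 in treated all and 1.25, 0.812, 1.2 and 0.910 in untreated all libraries. It rose by 0.95 ± 0.17 in treated all against untreated all (limma adjusted p = 0.00057), while its call in PD-L1 high against untreated all, 0.51 ± 0.17, was lost without untreated libraries 3 and 4 (limma adjusted p = 0.084), and without untreated library 2 or 4 or PD-L1 high library 1 or 3 (0.35 to 0.51).

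Slc66a2, which belongs to a family of lysosomal and endosomal carriers, had 13.7, 16.4 and 15 signal in PD-L1 high, 14.9, 15.4 and 14.2 in treated all and 9.66, 9.47, 8.51 and 10.7 in untreated all libraries. It rose by 0.58 ± 0.08 and 0.60 ± 0.08 in treated all and PD-L1 high against untreated all (limma adjusted p = 5.4e-05 and 5.0e-05). Slc15a4, a lysosomal carrier of histidine and peptides, had 12.8, 11.1 and 15.3 signal in PD-L1 high, 58.4, 18 and 29.1 in treated all and 12.8, 21.1, 2.97 and 32.6 in untreated all libraries. Slc15a4 was singled out after its values were seen, for the wide differences between libraries within both unselected groups. It was not called in any comparison (treated all against untreated all 1.19 ± 0.73, limma adjusted p = 0.20).

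Other genes of the same pathways were counted from lists chosen with earlier results of these data known, to be read against the shares of all genes called, 23.1% higher and 38.8% lower in treated all against untreated all, and 11.5% higher and 14.1% lower in PD-L1 high relative to treated all cells. Of 20 genes of the amino acid and integrated stress response, 14 rose, 70.0%, and 4 fell, 20.0%, in treated all against untreated all (median log2 fold change 0.21, against -0.07 for all genes), and 3 rose, 15%, and 7 fell, 35%, in PD-L1 high relative to treated all cells (median -0.09, against -0.01). In the second comparison 1 rose without untreated libraries 3 and 4. Ddit4, which restrains mTORC1, averaged 54.1 ± 0.877 signal in PD-L1 high, 147 ± 1.59 in treated all and 32.7 ± 1.85 in untreated all libraries, and Ddit3, the stress factor CHOP, averaged 30.3 ± 1.05, 62.3 ± 1.21 and 16.5 ± 1.1. Atf3 fell by 0.80 ± 0.04 in PD-L1 high against treated all (limma adjusted p = 1.5e-07).

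Of 20 tested genes of metal handling, 7 rose, 35%, and 5 fell, 25%, in treated all against untreated all (median 0.01), and 4 rose, 20.0%, and 9 fell, 45%, in PD-L1 high against treated all (median -0.12). Metallothionein Mt2, which binds zinc, averaged 737 ± 22.4 signal in PD-L1 high, 868 ± 10.1 in treated all and 392 ± 11.1 in untreated all libraries, and the ferritin heavy chain Fth1 rose by 0.26 ± 0.02 in treated all against untreated all (limma adjusted p = 6.9e-08). The transferrin receptor Tfrc, which takes up iron, averaged 28.4 ± 1.37, 32.0 ± 1.52 and 55.9 ± 2.96 signal in the same order and fell by 0.96 ± 0.05 in PD-L1 high against untreated all (limma adjusted p = 4.7e-08). The iron-scavenging lipocalin Lcn2 rose by 0.65 ± 0.05 in PD-L1 high against treated all and the ferritin light chain Ftl1 fell by 0.20 ± 0.02 (limma adjusted p = 4.7e-06 and 4.3e-05). Of 18 tested genes of nucleoside and nucleotide salvage, 7 rose, 38.9%, and 8 fell, 44.4%, in treated all against untreated all. The purine oxidase gene Xdh and the nucleotide hydrolase gene Samhd1 rose by 2.12 ± 0.03 and 2.72 ± 0.04 in that comparison (limma adjusted p = 8.5e-14 and 4.9e-13). For PD-L1 high relative to treated all cells, 4 rose, 22.2%, and 5 fell, 27.8%, among them Xdh at 0.26 ± 0.03 and the uridine-cytidine kinase gene Uck2 at -0.39 ± 0.05, and 2 fell without untreated libraries 3 and 4. Of 21 genes of lysosomal amino acid sensing, 6 rose, 28.6%, and 5 fell, 23.8%, in treated all against untreated all, and 2 in each direction, 9.52%, were called in PD-L1 high relative to treated all cells. The Ragulator subunit genes Lamtor3 and Lamtor2 changed by 0.43 ± 0.05 and -0.23 ± 0.03 in treated all against untreated all (limma adjusted p = 1.9e-05 and 2.8e-05), whereas Lamtor1 and the Rag GTPase gene Rragc changed by 0.13 ± 0.03 and -0.11 ± 0.03 for PD-L1 high against treated all (limma adjusted p = 0.011 and 0.026). Without untreated libraries 3 and 4, only Lamtor1 among the 21 was called in PD-L1 high against treated all (limma adjusted p = 0.048).

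Most members reached the minimum in every library: 149 of 161 had at least 1 signal in all 10 libraries, and 45 of 161 had a mean under 5. Just inside it were Slc27a3, Slc26a6 and Slc9a2, with means of 1.11, 1.09 and 1.08, and just outside Slc25a29, Slc24a3 and Slc44a4, with 0.873, 0.804 and 0.789. Of the 187 rows below the minimum, 67 were at 0 in all libraries and 2 had a group mean of at least 1. Slc25a29 was 1 of these, with a mean of 1.16 in untreated all libraries. The other was Slc6a19, a neutral amino acid carrier known from the intestine and kidney, with 1.29, 1.24 and 1.02 signal in PD-L1 high, 0.437, 0.909 and 0.818 in treated all and 0.0181, 0.0181, 0.0747 and 0 in untreated all libraries. Of the carriers named regardless of change, some known from macrophages were at or near 0. Slc11a1, the phagosomal metal carrier, had a mean of 0.152, Slc15a3, the lysosomal peptide carrier, 0.0340, and Slc7a2, the inducible cationic amino acid carrier, 0.102.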

How the data were processed

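Bulk RNA of mouse tumor cells was measured in 10 libraries, grouped by their titles. The deposited table gives the authors' normalized signal of each gene in the 10 libraries, and 3 columns of group means that were not used. No normalization, aligner, counting tool, annotation or strand is given in the sources used here. The submitters' processing notes name build mm10 and CASAVA 1.7. The deposited signal has no counts behind it in the table, so that depth per library is unknown and the library totals (698396 to 715500) do not measure it. A count test was planned for counts and could not be run. In place of it, its planned form for normalized values was used.

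Of 25507 rows, 695 held no value. Rows sharing 1 of 52 symbols were summed, as decided once the table had been seen. Genes with a mean of at least 1 (11487) were fitted as log2(signal + 1) with limma 3.58.1 in R 4.3.3, with an intensity trend, robust variances and 1 mean per group, and p-values were adjusted by the Benjamini-Hochberg method over all genes tested. The pseudocount understates the changes of low genes. The procedure was tested on simulated data. The members, substrate classes and gene lists were chosen with earlier results of these data known. Named members are those changed by at least 1.5-fold without overlap between groups, 15 carriers named regardless of change, and the 3 on each side of the minimum. Others are said to be chosen after their values were seen. Of the pathway lists, the 2 called genes with the smallest adjusted p per comparison are named, and further values of these genes are given beside them. Gene coordinates are from GENCODE M21 for GRCm38, the assembly of mm10, and promoters from the RefSeq table (GRCm38.p6). Of the 161 members, 123 had a promoter entry. Some members are counted but not reported by name here. The alternatives were another scaling, no filter, a pseudocount of 0.1, another variance model, a replicate block, fits without untreated libraries 3 and 4, and fits without each library.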

Additional observations from a re-analysis of the deposited data

How the results depend on the processing

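Without untreated libraries 3 and 4, 8 solute carriers were higher in PD-L1 high against treated all, 4.97% against 7.69% of all genes. There 14 were lower, 8.7% against 8.78%. In PD-L1 high against untreated all 30 were lower, 18.6% against 29.6%. With median-ratio scaling, 53 were higher, 32.9% against 28.2%, and 31 lower, 19.3% against 27.1%, in PD-L1 high against untreated all. In PD-L1 high against treated all 1 was lower by at least 1.5-fold with that scaling, 0.621% against 1.04%. With upper-quartile scaling it was also 1. With a pseudocount of 0.1, 13 and 7 were lower by at least 1.5-fold in treated all and PD-L1 high against untreated all. For upper-quartile scaling and this pseudocount the share of all genes at that fold is not given, so nothing is read from these counts. At any fold, 53 and 51 members were lower with this pseudocount, 32.9% against 38.7% and 31.7% against 40.9% of all genes. The log2 fold change of Slc25a4 in treated all against untreated all became 0.01 with median-ratio scaling. The cause of the changes under the scalings and the smaller pseudocount was not tested. With each library left out in turn, the members called in treated all against untreated all numbered 33 to 44 higher (9 to 10 by at least 1.5-fold) and 50 to 56 lower (4 to 8). These are 20.5% to 27.3% higher and 31.1% to 34.8% lower, against 20.9% to 23.2% and 35.1% to 38.9% of all genes. In PD-L1 high against treated all they numbered 12 to 18 higher (1 to 3) and 18 to 26 lower (1 to 4), and in PD-L1 high against untreated all 26 to 34 higher (6 to 8) and 41 to 52 lower (3 to 4). The other counts over all members were within 1.5 times those reported. Counts by substrate are smaller, and without untreated libraries 3 and 4 those the report gives that moved further were the amino acid carriers that rose (2) and the carriers of bicarbonate, protons, chloride and sulfate that fell (3) in treated all against untreated all, the carriers of vitamins, organic ions and cofactors that were lower in PD-L1 high than in treated all cells (2), and the nucleoside carriers that fell in PD-L1 high against untreated all (1).

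The labels give the groups shared replicate numbers. Deviations from the group mean had correlations of -0.18 to 0.10 between same-numbered libraries, and of -0.11 to 0.17 between differently numbered ones. With so few libraries, and untreated libraries 3 and 4 aligned with 1 and 2, this does not settle whether the numbers pair them. With the replicate block, 41 members rose, 25.5% against 21.7% of all genes, and 50 fell, 31.1% against 35.1%, in treated all against untreated all. In PD-L1 high against treated all 13 rose, 8.07% against 9.48%, and 21 fell, 13.0% against 11.7%. In PD-L1 high against untreated all 33 rose, 20.5% against 17.6%, and 42 fell, 26.1% against 36.3%. Of 219 values of named members, 208 kept their direction and call status with the block, and 186 did so without untreated libraries 3 and 4. The number of libraries and the unknown depth limit what can be said of low carriers such as Slc27a3 and Slc26a6.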
